A study of Mus musculus with 18 samples.

Results

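The 10 Wnt ligand genes Wnt3, Wnt3a, Wnt4, Wnt5a, Wnt5b, Wnt6, Wnt9a, Wnt9b, Wnt11 and Wnt2b were followed across 3 cell populations sorted from mouse intestinal epithelium. They were chosen by symbol from a list of Wnt ligands named for the crypt, and all 10 of 10 were measured, out of 16358 genes on the arrays. Each gene was read as the median log2 signal of the probe sets assigned to that symbol alone; the 10 genes had 6 to 14 probe sets each, 79 in all. Affymetrix Mouse Exon 1.0 ST arrays, which read a gene through many short probe sets, were hybridised with RNA from 18 sorted samples, 3 from each of 6 mice. The study sought markers of each population.

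All 3 populations came from female mice of the strain labelled H2B-YFP, carrying Cyp1a1-H2B-YFP, aged 99 to 109 days. In these mice the promoter of Cyp1a1, a gene switched on through the aryl hydrocarbon receptor, drives a histone fused to yellow fluorescent protein (YFP), which dividing cells dilute. Every mouse had been given the inducer βNF (β-naphthoflavone) 10 days earlier, so no group was free of transgene or inducer. Paneth cells were sorted as CD24+ cells that bound the lectin UEA, label-retaining cells (YFP-LRC) as CD24+ UEA- YFP+ cells, and the population labelled LCC as CD24+ UEA- YFP- cells. Each sort held 30000 cells, of which 8 ng of RNA was amplified.

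Wnt ligands are secreted lipid-bearing glycoproteins that bind Frizzled receptors and, through the co-receptors Lrp5 and Lrp6, stabilise beta-catenin, which then acts with TCF/LEF factors on target genes such as Axin2 and Lgr5. Other Wnts act through receptors such as Ror2 and Ryk without beta-catenin. In the small intestine this signal keeps crypt stem cells dividing and helps Paneth cells mature, and it comes both from the epithelium, where Paneth cells are known as a source of Wnt3, and from the stroma beneath, where Wnt2b, Wnt4, Wnt5a and Wnt5b are made.

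In LCC, 4 arrays stood apart. Their median correlations with the remaining 17 arrays were 0.894, 0.886, 0.872 and 0.825 for LCC of mice 2, 3, 5 and 6, against 0.938 and 0.929 for LCC of mice 1 and 4 and 0.917 to 0.950 for the YFP-LRC and Paneth arrays. Of 11 measured Paneth cell genes, 8 were called higher and 0 lower in the Paneth population than in LCC. Among all genes, 14.5% were called in that comparison and 7.24% in YFP-LRC minus LCC. Lyz1, the Paneth cell lysozyme, was high in every population, with mean log2 values of 13.09 in LCC, 13.13 in YFP-LRC and 13.43 in Paneth. YFP-LRC also carried 5 of these 11 genes higher than LCC. Array signals have no true zero, so absence of a transcript could not be read from them.

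The start regions of Wnt3 and Wnt11 are shown because probe sets of these 2 ligands passed the test between populations, and because every mouse had received an activator of the aryl hydrocarbon receptor. Each is the 250 bases before the annotated start, from RefSeq on GRCm38.p6. Wnt3 lies at chr11:103773925-103774174 on the plus strand, and the first of 2 annotated Wnt11 starts at chr7:98834862-98835111 on the plus strand.
Wnt3: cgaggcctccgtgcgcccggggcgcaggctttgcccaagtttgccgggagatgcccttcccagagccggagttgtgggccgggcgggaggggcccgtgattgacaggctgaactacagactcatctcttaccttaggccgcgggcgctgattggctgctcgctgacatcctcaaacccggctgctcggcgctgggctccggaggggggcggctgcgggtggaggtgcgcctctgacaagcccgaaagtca
Wnt11: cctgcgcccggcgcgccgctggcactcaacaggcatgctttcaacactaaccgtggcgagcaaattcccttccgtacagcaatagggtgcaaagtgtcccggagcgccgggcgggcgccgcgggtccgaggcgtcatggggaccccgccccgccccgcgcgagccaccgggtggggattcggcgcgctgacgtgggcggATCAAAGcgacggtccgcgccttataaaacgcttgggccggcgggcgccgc
Capitals mark a TCF/LEF word on either strand (CTTTGAA, its variant CTTTGAT, the related word CTTTGTA, or the word CTTTGTT), here starting 51 bases before the Wnt11 start. Neither printed region holds the core word GCGTG of the aryl hydrocarbon receptor element on either strand, while the region of the second Wnt11 start holds it 27 bases before that start. Of the 10 genes, 9 had start regions in the table, 12 in all, and Wnt5a had no entry. Of these 12, 3 belong to Wnt5b. G and C made up 53.2% to 87.6% of the bases in a region. The receptor word stood in 7 of the 12 and in 28.2% of 32851 mouse start regions of the same length, not matched for G and C content. A TCF/LEF word stood in 2 of 12 and in 14.8%. These are letter matches and describe no binding.

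None of the 10 ligand genes was called between any pair of populations by the main test across all genes. That test was limma without mouse as a term (adjusted p under 0.05 by Benjamini-Hochberg over 16358 genes, all 18 arrays in 1 fit). With mouse as a block, Wnt11 was called lower in YFP-LRC than in LCC (limma adjusted p = 0.0373), and no other ligand was called. In the main test 7.24% of all genes were called between YFP-LRC and LCC, 0.355% between YFP-LRC and Paneth, and 14.5% between Paneth and LCC. At an unadjusted p under 0.05, the ligand count was 1 of 10 (Wnt11, lower in YFP-LRC than in LCC), 0 of 10 and 0 of 10, where 24.8%, 5.52% and 30.2% of all genes passed it. For every ligand and every pair, the ranges of the 6 arrays overlapped. The share of all genes whose ranges overlap was not counted. The 95% intervals of the log2 differences, each for 1 gene and unadjusted for their number, reached from -0.83 to 0.44 for YFP-LRC minus LCC, from -0.81 to 0.51 for YFP-LRC minus Paneth and from -0.87 to 0.76 for Paneth minus LCC. Each range runs from the lowest to the highest bound over the 10 genes, and all of the 30 intervals except that of Wnt11 in YFP-LRC minus LCC include 0. In such pooled sorts, fewer cells of a type and less RNA per cell cannot be told apart.

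**Figure D1:**
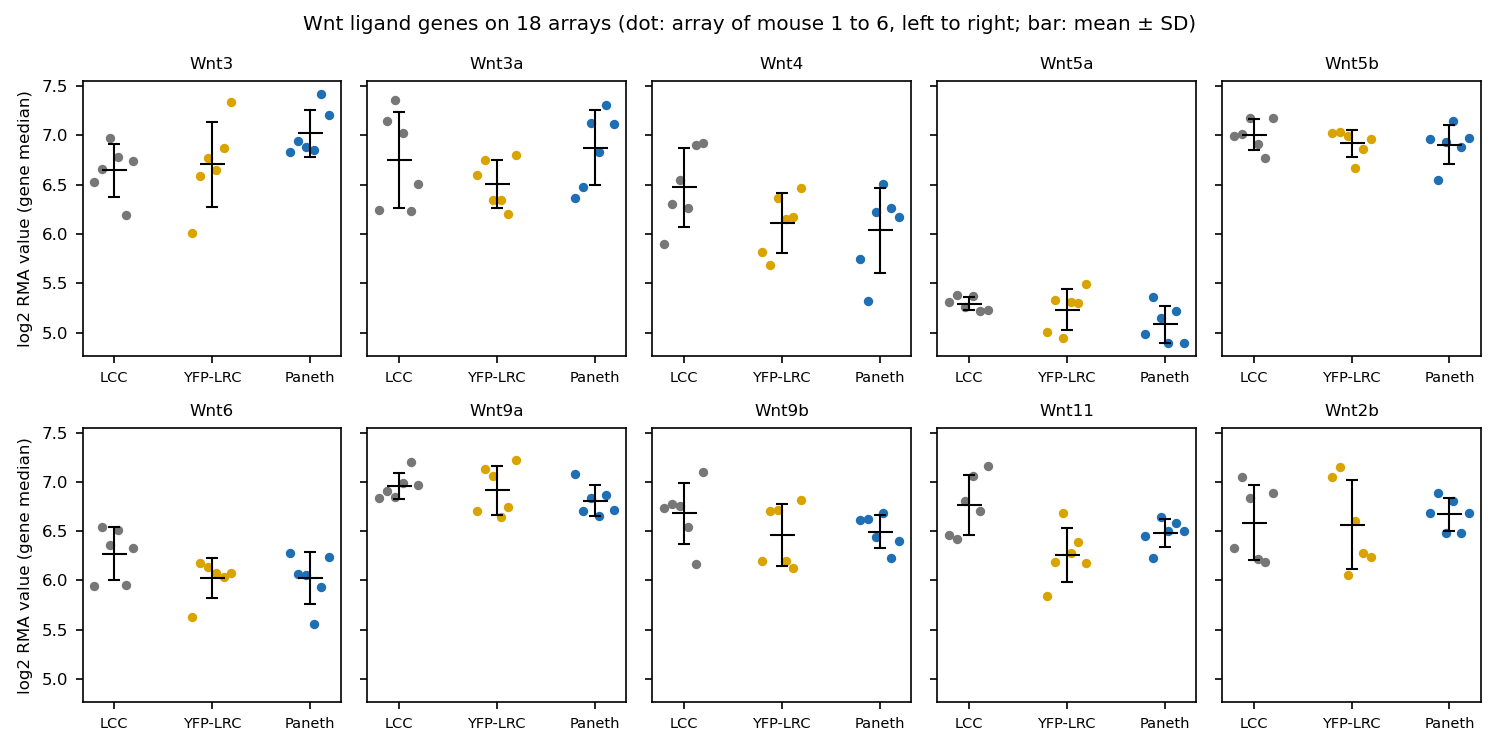
Log2 RMA values (vertical axis) of the 10 Wnt ligand genes on each array, by population. Dots are the arrays of mice 1 to 6 from left to right, and bars give the mean ± SD of 6 arrays. The groups overlap in every panel; the Paneth dots for Wnt3 lie between 6.83 and 7.42.

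Wnt3, the ligand that Paneth cells of the small intestine are known to supply to neighbouring stem cells, had its highest mean in the Paneth population, but the difference did not pass the test. In LCC its log2 values were 6.53, 6.66, 6.97, 6.78, 6.19 and 6.74 for mice 1 to 6. The YFP-LRC values were 6.01, 6.59, 6.77, 6.65, 6.87 and 7.34. In Paneth cells they were 6.83, 6.94, 6.88, 6.85, 7.42 and 7.21. All Paneth arrays except those of mice 5 and 6 lay within the LCC range, and the YFP-LRC arrays spread more widely than either. The means were 6.65 ± 0.26 in LCC, 6.70 ± 0.43 in YFP-LRC and 7.02 ± 0.24 in Paneth (SD, n = 6 each). Paneth exceeded LCC by 0.37 ± 0.19 (SE) on the log2 scale, with a 95% interval from -0.01 to 0.76, higher in 5 of 6 mice (limma, adjusted p = 0.179). In the order Paneth, YFP-LRC, LCC, neither pair of neighbours differed beyond its spread: YFP-LRC minus Paneth was -0.32 (interval -0.70 to 0.07, limma adjusted p = 0.984) and YFP-LRC minus LCC 0.06 (interval -0.33 to 0.44, adjusted p = 0.881). With the mean over probe sets in place of the median, Paneth minus LCC was 0.39 and was called (limma adjusted p = 0.0377).

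The 6 Wnt3 probe sets did not move alike. Probe set 4663215 was higher in Paneth than in LCC by 1.28 ± 0.33 (SE, log2; limma adjusted p = 0.0277 over 209279 probe sets), higher in 6 of 6 mice. For mice 1 to 6 its log2 values were 6.83, 7.82, 7.38, 7.15, 5.89 and 6.81 in LCC, and 8.26, 8.06, 8.11, 7.86, 8.63 and 8.63 in Paneth. Every Paneth array lay above every LCC array. In YFP-LRC it read 8.50, 8.08, 9.24, 8.11, 7.30 and 7.47, with 4 arrays above the LCC range and those of mice 5 and 6 inside it. YFP-LRC minus LCC was 1.13 ± 0.33 and missed the threshold (adjusted p = 0.067), and YFP-LRC minus Paneth was -0.14 (adjusted p = 1).

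The other 5 Wnt3 probe sets differed between Paneth and LCC by -0.19 to 0.63, and none was called. The call on probe set 4663215 was lost without LCC of mouse 5 or 6 or Paneth of mouse 5 or 6, the adjusted p then reaching at most 0.0626. It was lost too with LCC of mice 1 and 4 as the only LCC arrays, where the difference was 1.27 (adjusted p = 0.264), and after a second quantile normalization, where it was 1.07 (adjusted p = 0.0509). The part of the transcript each probe set reads was not analysed here. In the annotation the listed extents of Wnt3 and its neighbour Wnt9b overlap. Their start regions, chr11:103773925-103774174 on the plus strand and chr11:103749822-103750071 on the minus strand, lie apart. The strand a probe set reads is not given in the sources used here.

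**Figure D2:**
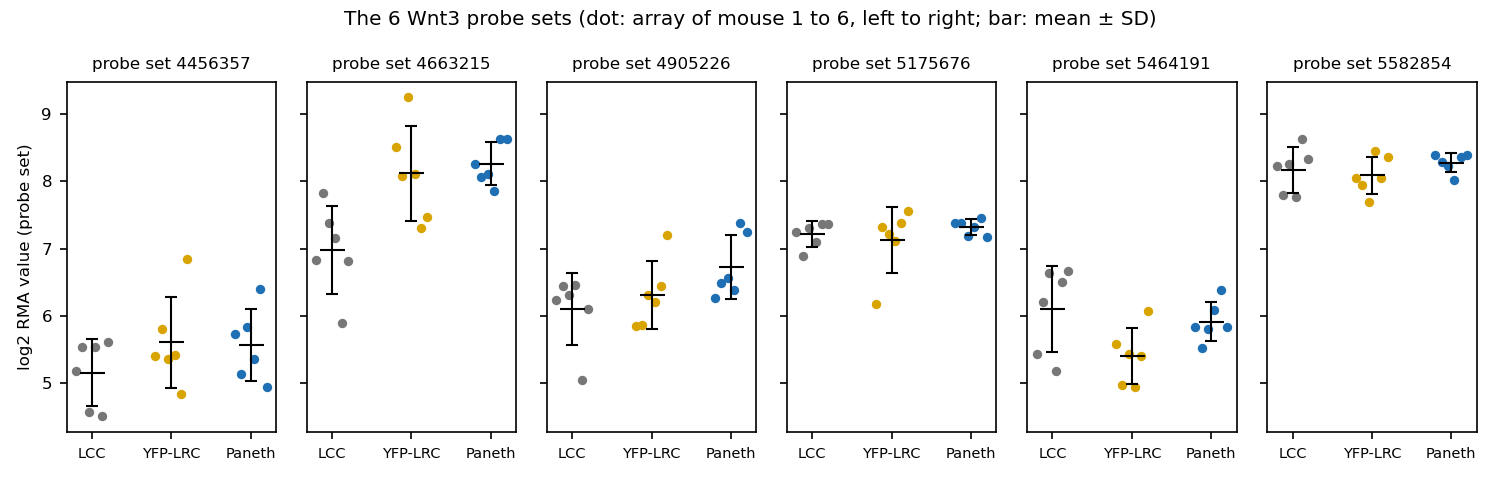
Log2 RMA values (vertical axis) of the 6 Wnt3 probe sets on each array, by population; dots are mice 1 to 6 from left to right and bars the mean ± SD of 6 arrays. In probe set 4663215 the Paneth arrays lie at 7.86 to 8.63, above the LCC arrays at 5.89 to 7.82.

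Wnt3a, the close relative of Wnt3 that drives beta-catenin signalling in culture media for crypt organoids, ranged from 6.23 to 7.36 in LCC with a median of 6.77. YFP-LRC ran from 6.20 to 6.80 (median 6.47) and Paneth from 6.37 to 7.31 (median 6.97). LCC and Paneth spanned nearly the same values, and YFP-LRC lacked the upper part of that span. The log2 differences were -0.25 for YFP-LRC minus LCC, -0.37 for YFP-LRC minus Paneth and 0.12 for Paneth minus LCC, with limma adjusted p of 0.496, 0.984 and 0.736. With the mean over its 7 probe sets they were -0.13, -0.01 and -0.12, so the sign in Paneth minus LCC turned. Across the 18 arrays, values of Wnt3a and Wnt3 had a Pearson r of 0.50, and 0.468 after population means were removed.

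Wnt11, a ligand best known from frog and zebrafish embryos for steering cell movement without beta-catenin, had the largest difference of the 10 ligands. LCC arrays read 6.42 to 7.16 with a median of 6.76. YFP-LRC arrays read 5.84 to 6.68 (median 6.24), and Paneth arrays 6.23 to 6.64 (median 6.50). YFP-LRC lay below LCC in every mouse, although the highest YFP-LRC array, that of mouse 3, exceeded 2 LCC arrays. YFP-LRC minus LCC was -0.51 ± 0.16 (SE, log2), with an interval from -0.83 to -0.18 (limma, adjusted p = 0.0517). It was called lower with mouse as a block (adjusted p = 0.0373) and in 8 of 32 alternatives in all, among which the adjusted p ran from 0.0247 to 0.509. Paneth minus LCC was -0.28 (adjusted p = 0.222), lower in 6 of 6 mice, and YFP-LRC minus Paneth was -0.22 (adjusted p = 0.994), which turned to 0.04 with the mean over probe sets.

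Of the 9 Wnt11 probe sets, 8 had a difference below 0 in YFP-LRC minus LCC and 8 in Paneth minus LCC, while 8 lay above 0 in YFP-LRC minus Paneth. One, probe set 5020276, was called lower in Paneth than in LCC, by -0.63 ± 0.18 (SE, log2; limma adjusted p = 0.0482). LCC arrays there read 9.55, 10.18, 10.18, 9.96, 9.83 and 10.60 for mice 1 to 6. Paneth arrays read 9.23, 9.23, 9.30, 9.44, 9.65 and 9.68. Paneth was lower in every mouse, with the LCC array of mouse 1 inside the Paneth range. The call was lost without any 1 of 16 arrays, all except LCC of mouse 1 and YFP-LRC of mouse 6, with an adjusted p of at most 0.102. With LCC of mice 1 and 4 alone the difference was -0.33 (adjusted p = 0.69).

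Wnt6 and Wnt9b, ligands known to be made in crypt epithelium, had their highest means in LCC. Wnt6 read 5.94 to 6.54 in LCC (median 6.35), 5.63 to 6.18 in YFP-LRC (median 6.08) and 5.56 to 6.28 in Paneth (median 6.07). The low end of LCC fell among the other 2 populations. Its log2 difference was -0.24 for YFP-LRC minus LCC (limma adjusted p = 0.336) and -0.25 for Paneth minus LCC (adjusted p = 0.281). Over the mean of probe sets the latter was -0.44 and was called (adjusted p = 0.0271), and so was Wnt11, at -0.34 (adjusted p = 0.0198).

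Wnt9b, an inducer of kidney tubules in the mouse embryo, read 6.17 to 7.10 in LCC (median 6.75), 6.13 to 6.82 in YFP-LRC (median 6.45) and 6.23 to 6.68 in Paneth (median 6.53). Its YFP-LRC minus LCC difference was -0.22, below 0 in 6 of 6 mice but small beside the spread (limma adjusted p = 0.422), and it was -0.02 with the mean over probe sets. Paneth minus LCC was -0.18 (adjusted p = 0.463).

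Among the ligands known from the stroma, Wnt4, needed for kidney and female reproductive tract development in the mouse, had the widest difference. It read 5.90 to 6.92 in LCC (median 6.43), 5.69 to 6.47 in YFP-LRC (median 6.16) and 5.32 to 6.51 in Paneth (median 6.20). The highest LCC arrays, those of mice 5 and 6, lay above all others. Paneth minus LCC was -0.43 ± 0.21 (SE, log2; limma adjusted p = 0.174) and YFP-LRC minus LCC -0.36 (adjusted p = 0.3). With LCC of mice 1 and 4 as the only LCC arrays these became -0.04 and 0.03, and with the mean over probe sets -0.16 and -0.24.

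Wnt5a, which signals mostly without beta-catenin through Ror2, was the most even within LCC, at 5.22 to 5.38 (median 5.28). YFP-LRC arrays ran from 4.95 to 5.49 (median 5.31) and Paneth arrays from 4.89 to 5.36 (median 5.07). Paneth lay below LCC in 6 of 6 mice, yet the groups overlapped and the difference of -0.21 was not called (limma adjusted p = 0.254). Its relative Wnt5b had means of 7.01 ± 0.16 in LCC, 6.92 ± 0.14 in YFP-LRC and 6.91 ± 0.20 in Paneth (SD, n = 6 each), with log2 differences between -0.10 and 0.01.

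Wnt2b, a stromal ligand that can sustain crypt stem cells, had means of 6.59 ± 0.38, 6.56 ± 0.45 and 6.67 ± 0.17 in LCC, YFP-LRC and Paneth, and log2 differences between -0.11 and 0.08; Paneth minus LCC turned from 0.08 to -0.13 with the mean over probe sets. Wnt9a, known for its part in joint formation, had means of 6.96 ± 0.13, 6.91 ± 0.25 and 6.81 ± 0.16 (SD, n = 6 each) and log2 differences between -0.15 and 0.11. For neither gene did the 3 populations differ beyond the spread of the arrays.

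**Figure D3:**
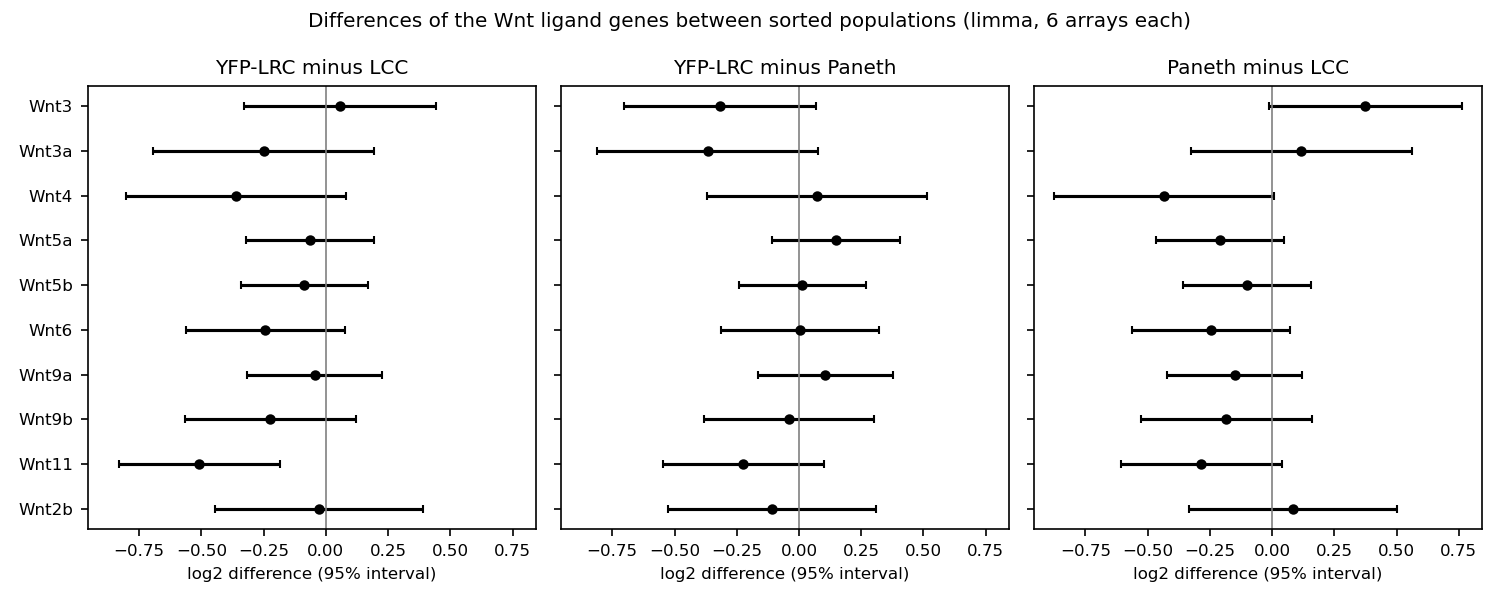
Log2 differences of the 10 ligand genes (horizontal axis) between populations, with unadjusted 95% intervals from limma on 18 arrays. The interval of Wnt11 in YFP-LRC minus LCC, from -0.83 to -0.18, leaves out 0; those of all other ligands in the 3 panels include it.

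Most ligand differences against LCC were below 0, and their medians lay nearer 0 with LCC of mice 1 and 4 as the only LCC arrays. Of the LCC arrays, these 2 had the highest median correlations with the other 17 arrays, most of which are YFP-LRC or Paneth. Keeping them may thus favour smaller differences from LCC, which was not tested. Single ligands varied: in YFP-LRC minus LCC, Wnt4 went from -0.36 to 0.03, Wnt11 from -0.51 to -0.50 and Wnt5a from -0.06 to -0.10. In YFP-LRC minus LCC, 9 of 10 differences were below 0 with a median of -0.15, against a median of 0.04 over all genes; with the 2 LCC arrays 4 of 10 were above 0 and the median was -0.07. In Paneth minus LCC, 7 of 10 were below 0 with a median of -0.17, against 0.03 over all genes, and the median was -0.07 with the 2 LCC arrays. In YFP-LRC minus Paneth, 5 of 10 were below 0 with a median of -0.02, against 0.00 over all genes. The first 2 comparisons share the LCC arrays.

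Most ligands were dim on these arrays. Of the 10, 8 had a mean at or below the 95th percentile of 888 olfactory receptor genes, a log2 value of 6.80 used here as a mark of dim genes. The 9564 genes this dim had a median of -0.06 in YFP-LRC minus LCC and -0.10 in Paneth minus LCC, with 59.1% and 62.5% below 0. The brighter 6794 genes had medians of 0.27 and 0.31. The 2 brighter ligands, Wnt5b and Wnt9a, were also below 0 in both comparisons with LCC, with medians of -0.07 and -0.13. The part of signal strength in the ligand differences was not tested.

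At the level of single probe sets, 0 of 79 were called between YFP-LRC and LCC (2.64% of all probe sets), 0 between YFP-LRC and Paneth (0.0483%) and 2 (2.53%) between Paneth and LCC (6.35%). At an unadjusted p under 0.05 the counts were 12, 2 and 14 of 79. The share of all probe sets at that level was not counted, while over all genes it was 24.8%, 5.52% and 30.2%. Differences below 0 numbered 57 of 79 in YFP-LRC minus LCC, 34 in YFP-LRC minus Paneth and 53 in Paneth minus LCC. The medians of the 79 were -0.1497, 0.0391 and -0.1824, against 0.0585, -0.0013 and 0.0467 over all probe sets. The share of all probe sets below 0, or of those as dim, was not counted. All 6 Wnt6 probe sets lay below 0 in YFP-LRC minus LCC, by -0.55 to -0.15. With mouse as a block 1 Wnt11 probe set, 4340695, was called between YFP-LRC and LCC (-0.71, limma adjusted p = 0.0491), and 1 of Wnt6, 5558612, joined the 2 called between Paneth and LCC (-0.81, adjusted p = 0.0357).

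**Figure D4:**
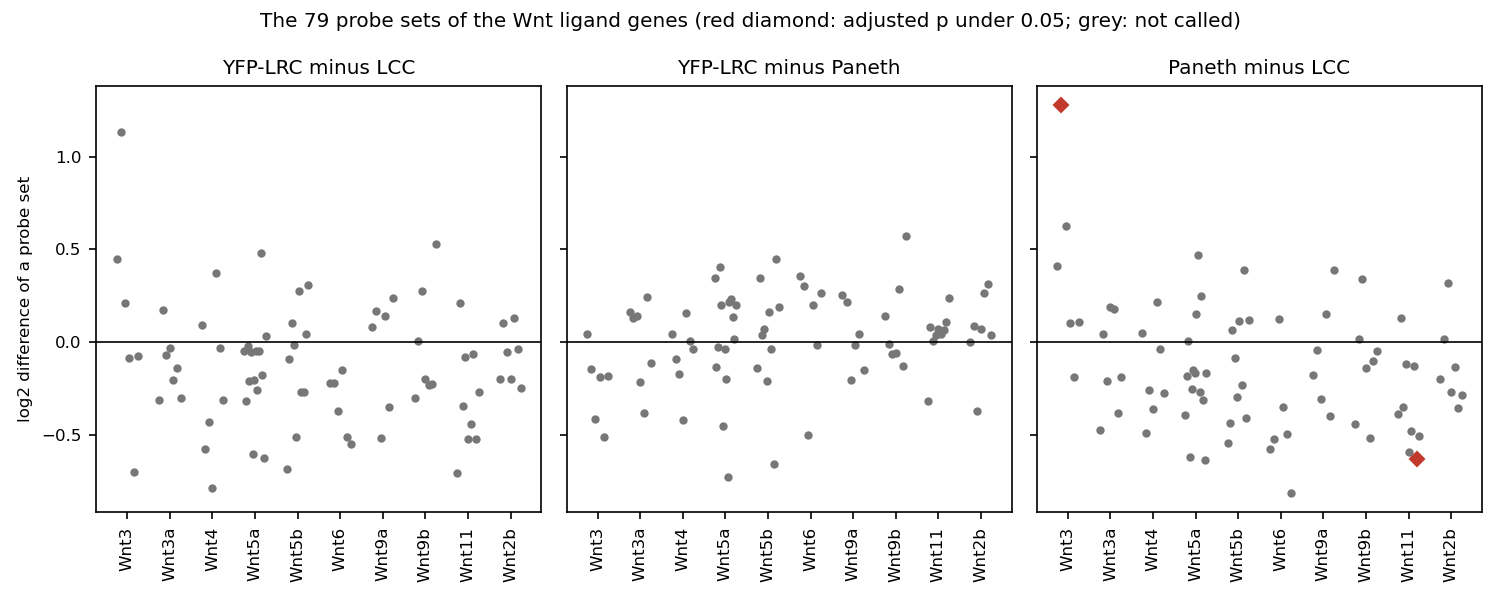
Log2 differences (vertical axis) of the 79 probe sets of the ligands, by gene and comparison; each dot is a probe set. Red diamonds passed an adjusted p of 0.05: Wnt3 probe set 4663215 at 1.28 and Wnt11 probe set 5020276 at -0.63, both in Paneth minus LCC.

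The machinery that acts on the ligands was read from 6 lists of the pathway, 75 genes of which 68 were measured. Between YFP-LRC and LCC, 5 were called higher and 1 lower, where 1035 of all 16358 genes were called higher and 150 lower (7.24%). Between YFP-LRC and Paneth 0 were called by limma, with 5 at an unadjusted p under 0.05. Of all genes, 0.355% were called there and 5.52% passed the unadjusted level. Between Paneth and LCC, 12 were called higher and 2 lower, beside 1958 and 414 of all genes (14.5%). With LCC of mice 1 and 4 as the only LCC arrays, 0 and 1 were called against LCC, and for each gene called in the full fit the difference under that setting follows its value. That setting keeps the LCC arrays most like the other arrays, which may favour smaller differences from LCC. It also leaves fewer arrays, which lowers the precision and by itself can end calls. The share of each in the lost calls was not tested, and the count over all genes under that setting is not given here.

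Genes that load and carry Wnts out of the cell had a median of 0.52 in Paneth minus LCC, and 3 of 10 were called higher. The median there was 0.03 over all genes and 0.31 over the 6794 genes above the dim mark. Tmed10, a cargo receptor of early secretory vesicles, rose by 1.45 ± 0.28 (SE, log2; adjusted p = 0.00244), higher in 6 of 6 mice, and was 0.87 with the 2 LCC arrays (adjusted p = 0.0629). Tmed2, its partner in the same vesicles, rose by 0.54 (0.23 with the 2 LCC arrays). Wls, the carrier that takes Wnts to the cell surface, rose by 0.68 (adjusted p = 0.0423; 0.21 with the 2 LCC arrays), and that call was lost without LCC of mouse 2, 3, 5 or 6 or Paneth of mouse 3, 4, 5 or 6.

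In YFP-LRC minus LCC the median of this list was 0.32 and 0 of 10 were called (4 at an unadjusted p under 0.05). Of all genes, 24.8% passed that unadjusted level there, and the 6794 genes above the dim mark had a median of 0.27. Wls stood at 0.68 (limma adjusted p = 0.0625) and Tmed10 at 0.91 (adjusted p = 0.052, and called at 0.0295 with mouse as a block); with the 2 LCC arrays they stood at 0.21 and 0.33. Porcn, the enzyme that attaches the lipid to Wnts, differed by 0.08 in YFP-LRC minus LCC and 0.20 in Paneth minus LCC, with neither called.

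Of the 15 receptor genes measured, 2 were called higher and 1 lower in Paneth minus LCC, and 2 higher in YFP-LRC minus LCC. Ryk, a Wnt receptor of the kinase family, rose by 0.86 in Paneth (limma adjusted p = 0.00474; 0.77 with the 2 LCC arrays) and by 0.82 in YFP-LRC (adjusted p = 0.0132; 0.73). Lrp6, the co-receptor of beta-catenin signalling, rose by 0.68 in Paneth (adjusted p = 0.0247; 0.26) and by 0.64 in YFP-LRC (0.22), where its adjusted p of 0.05 was at the threshold and became 0.0655 with mouse as a block. Fzd2 fell by 0.76 in Paneth (adjusted p = 0.0426, but 0.0562 with mouse as a block; -0.18 with the 2 LCC arrays).

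Fzd5 and Fzd7, Frizzled receptors known in Paneth and crypt base stem cells, were not called in any comparison, at -0.26 and 0.26 in Paneth minus LCC. Of the secreted inhibitors 0 of 12 were called in any comparison by limma. At an unadjusted p under 0.05 there were 3, 2 and 2 in YFP-LRC minus LCC, YFP-LRC minus Paneth and Paneth minus LCC. Of all genes, 24.8%, 5.52% and 30.2% passed that level. Sfrp1, which binds Wnts outside the cell, stood at -0.54 in Paneth minus LCC (adjusted p = 0.0923).

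Among genes that report or tune the received signal, 2 of 6 measured genes of the R-spondin axis, Lgr5 and Rnf43, and the relay gene Axin2 were called higher in both YFP-LRC and Paneth than in LCC. Lgr5, the R-spondin receptor of crypt base stem cells, rose by 1.61 ± 0.20 in YFP-LRC (SE, log2; limma adjusted p = 0.00065) and by 2.27 ± 0.20 in Paneth (adjusted p = 2.18e-06), in 6 of 6 mice each. With the 2 LCC arrays these were 1.02 (adjusted p = 0.187) and 1.68 (adjusted p = 0.00122). Axin2, a feedback inhibitor and widely used readout of beta-catenin activity, rose by 0.73 in YFP-LRC (adjusted p = 0.0232) and by 0.65 in Paneth (adjusted p = 0.0236), and stood at 0.37 and 0.28 with the 2 LCC arrays.

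Rnf43, which removes Frizzled receptors from the cell surface, rose by 0.91 in YFP-LRC (limma adjusted p = 0.0271; 0.85 with the 2 LCC arrays) and 0.71 in Paneth (adjusted p = 0.0459; 0.65). The intracellular relay had 15 of 16 genes above 0 in each comparison with LCC. Of all 16358 genes, 8982 lay above 0 in YFP-LRC minus LCC and 8641 in Paneth minus LCC. Of the 6794 genes above the dim mark, only 25.4% and 25.6% lay below 0. The part of signal strength in the pathway lists was not tested. In Paneth minus LCC 5 of the 16 relay genes were called higher. Besides Axin2 these were Btrc at 0.91, Csnk1a1 at 0.84, Tcf7l2 at 0.75 and Bcl9 at 0.73. With the 2 LCC arrays they stood at 0.37, 0.07, 0.70 and 0.43.

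Of the 9 other Wnt ligands measured, Wnt10a, which neighbours Wnt6 in the genome, was lower in Paneth than in LCC (-0.53, limma adjusted p = 0.0437; -0.41 with the 2 LCC arrays), but with the mean over probe sets it was -0.26 and not called (adjusted p = 0.183). Wnt8b was lower in YFP-LRC than in LCC (-0.57, adjusted p = 0.0469, but 0.0616 with mouse as a block; -0.44). Leaving out any 1 of 12 arrays ended either call, with adjusted p of at most 0.0973 for Wnt10a and 0.114 for Wnt8b.

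Of the pathway calls, Lgr5 and Ryk in both comparisons with LCC, and Tmed2, Tmed10, Btrc and Bcl9 in Paneth minus LCC, held without any 1 of the 18 arrays. Without the 3 arrays of 1 mouse, the calls of Lgr5 in both comparisons and of Ryk and Tmed10 in Paneth held. Ryk in YFP-LRC lost its call in 3 of 6 such fits (limma adjusted p at most 0.0847), Tmed2 in 4 (at most 0.0678), Btrc in 3 (at most 0.0589) and Bcl9 in 3 (at most 0.0894). The Axin2 call ended in YFP-LRC without LCC of mouse 3 or 5 or YFP-LRC of mouse 5 (limma adjusted p at most 0.0553), and in Paneth without LCC of mouse 3 or 5 or Paneth of mouse 5 or 6 (at most 0.0597). Rnf43 lost its call in YFP-LRC without LCC of mouse 5 or 6 or YFP-LRC of mouse 2, 3 or 4 (at most 0.0604), and in Paneth without any 1 of 14 arrays (at most 0.11). In Paneth minus LCC, Lrp6 was no longer called without LCC of mouse 3, 5 or 6 or Paneth of mouse 6 (at most 0.0621), Csnk1a1 without LCC of mouse 3 or 6 or Paneth of mouse 5 (at most 0.0627), and Tcf7l2 without LCC of mouse 2 or 5 or Paneth of mouse 2, 5 or 6 (at most 0.0735). The calls of Fzd2 in Paneth and of Lrp6 in YFP-LRC ended without any 1 of 11 and 13 arrays (at most 0.106 and 0.12).

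**Figure D5:**
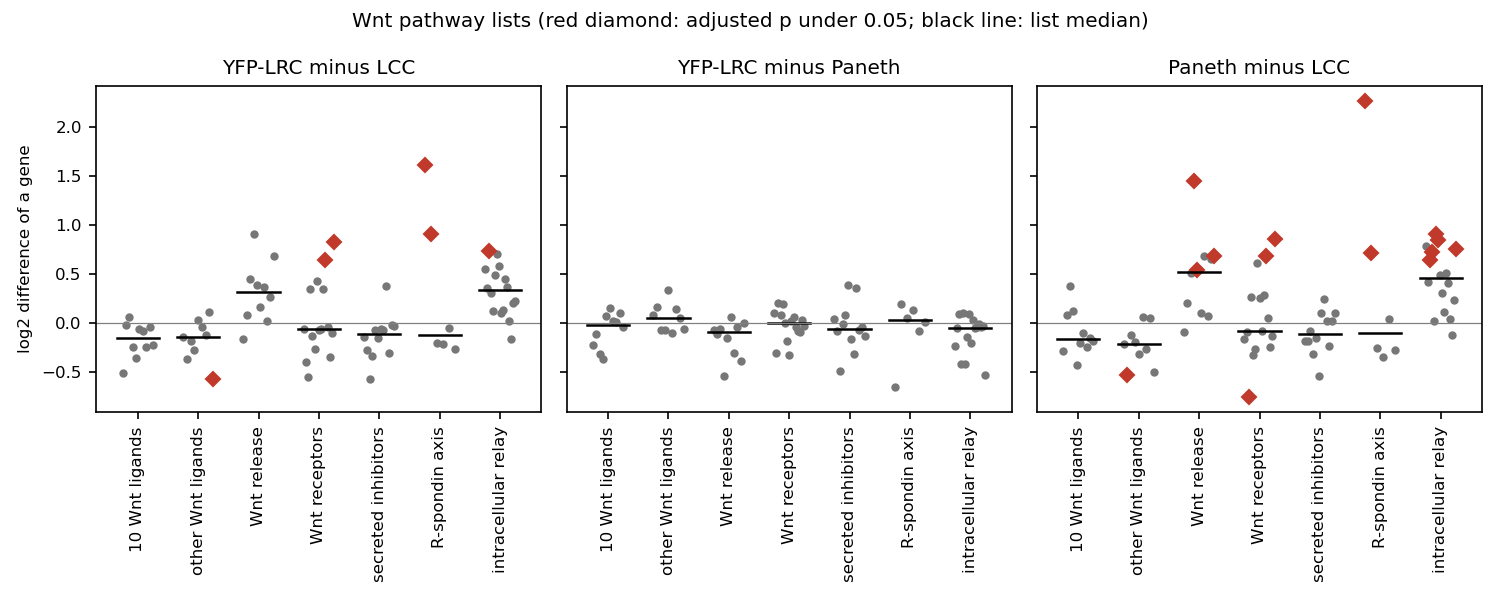
Log2 differences (vertical axis) of the genes in the ligand list and 6 pathway lists, by comparison; each symbol is a gene, red diamonds passed an adjusted p of 0.05 and black lines are list medians. In Paneth minus LCC the release and relay lists have medians of 0.52 and 0.45 and the ligand list -0.17.

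Markers of other cell types were read in the same comparisons. Among all genes, 14.5% were called in Paneth minus LCC and 7.24% in YFP-LRC minus LCC. In Paneth minus LCC, 7 of 8 tuft cell genes were called higher, with a summed log2 level of 66.84 to 73.95 in Paneth and 57.64 to 62.73 in LCC. Enteroendocrine genes fell in 4 of 10 cases and rose in 0, with sums of 72.45 to 74.15 in Paneth, 74.68 to 82.42 in LCC and 79.56 to 86.55 in YFP-LRC. Goblet cell genes were called higher in 3 of 7 cases in Paneth and 2 of 7 in YFP-LRC against LCC.

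Stromal and endothelial genes, from cells that also make Wnts, were called lower than LCC for 2 of 17 in Paneth and 1 of 17 in YFP-LRC. Of all 16358 genes, 414 and 150 were called lower there, and 14.5% and 7.24% were called in either direction. The stromal and endothelial sums were 99.32 to 102.12 in Paneth, 100.43 to 104.32 in YFP-LRC and 102.29 to 106.53 in LCC. Leukocyte genes in Paneth minus LCC were called higher for 1 of 11 (Ptprc, 1.33) and lower for 2. Of the 11, 9 lay below 0 there, and the median was -0.18. In YFP-LRC minus LCC all 11 lay below 0, and 1 was called lower. The leukocyte sums were 66.30 to 70.30 in Paneth, 64.39 to 67.02 in YFP-LRC and 66.93 to 70.96 in LCC. The part of these markers in the results was not tested.

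The genes most like Wnt3 over the 18 arrays, by Pearson r among 16357 others, were Kdm4a (0.806), Cited4 (0.775) and Galnt4 (0.774). After the population means were removed they were Srm (0.882), Npy1r (0.850) and Prdm16 (0.821). The arrays share mice and processing, so these values are descriptive. None of the other 9 ligands was among them: their r with Wnt3 ran from -0.19 for Wnt2b to 0.50 for Wnt3a over all arrays.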

How the data were processed

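RNA from 3 sorted populations of 6 mice was measured on 18 exon arrays. The deposited values are log2 signals of 229581 probe sets, made by the authors with RMA in Affymetrix Power Tools 1.12.0 on a core probe set list of mm9, per the file headers; both deposited tables hold the same values (largest difference 0). Of these probe sets 209279 carried 1 symbol and were used, 4446 carried several and 15856 none. Of 16380 symbols, 14190 were current, 2145 were updated through synonyms and 45 were unmatched, leaving 16358 genes with a median of 11 probe sets. A gene's value was the median over its probe sets. Array medians were 6.40 to 6.66 in LCC, 6.65 to 6.73 in YFP-LRC and 6.63 to 6.77 in Paneth, and the number of arrays limits the precision. The 4 LCC arrays that stood apart, of mice 2, 3, 5 and 6, had medians of 6.52, 6.52, 6.42 and 6.40. LCC of mice 1 and 4 had 6.66 and 6.65.

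The groups were compared with limma 3.58.1 in R 4.3.3 (population means, 15 residual degrees of freedom before moderation, moderated 2-sided test, Benjamini-Hochberg adjustment over all genes or all probe sets, called under 0.05); the code was tested on simulated data. Per the labels, same-numbered arrays come from 1 mouse, so mouse as a block was the alternative; deviations from population means correlated at -0.11 to 0.41 over the 18 same-mouse pairs (median 0.06, above 0.1 in 6), against a median of -0.01 between mice. The litter label of the YFP-LRC array of mouse 6 differs from that of the other 2 arrays of that mouse. Other alternatives were the mean over probe sets, 2 rescalings, a filter on dim genes, array weights, robust trended moderation, fits of 2 populations, and leaving out arrays or mice. Named genes were all 10 ligands, pathway genes called in some comparison (at most the 5 smallest p per list and comparison), and, called or not, Porcn, Wls, Fzd5, Fzd7 and Sfrp1. Ptprc was named after its values were seen, and so was Lyz1. The ligands and lists were chosen with earlier results of these data known. Fzd9, Lgr4, Lgr6, Znrf3, Gsk3a, Tcf7l1 and Pygo1 were not analysed here.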

Additional observations from a re-analysis of the deposited data

Results flagged for a closer look

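In Wnt6, the YFP-LRC array of mouse 1 lay apart from the other 5 YFP-LRC arrays. It read 5.63, while the next lowest array read 6.04, a gap of 0.74 of the group's whole range, above Dixon's critical value of 0.625 for 6 samples. This was 1 of 36 groups examined, and chance flags about 1 in 20.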

How the results depend on the processing

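Over 30 ligand differences (10 genes in 3 comparisons) and 966 values under the alternatives, 11 changed the call, all from not called to called; 55 of the 966 changed sign, none of them called. The count of ligands called between YFP-LRC and LCC went from 0 to 1 (Wnt11) with mouse as a replicate block, with the mean over probe sets, after a second quantile normalization, with arrays centred on the median and with robust trended moderation, and ran from 0 to 1 when 1 array or 1 mouse was left out: Wnt11 was called without LCC of mouse 1 (adjusted p = 0.0247), without LCC of mouse 2 (0.0421) or without YFP-LRC of mouse 3 (0.035). Between Paneth and LCC the count went from 0 to 3 with the mean over probe sets, and stayed at 0 under all other alternatives run. Between YFP-LRC and Paneth 0 ligands, pathway genes or ligand probe sets were called by limma under any alternative run.

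Pathway genes called between YFP-LRC and LCC numbered 6, and 15 with the mean over probe sets, 2 after the second quantile normalization, 3 with only the 2 populations in the fit and 0 without LCC of mice 2, 3, 5 and 6; single arrays or mice left out gave 1 to 11. Between Paneth and LCC they numbered 14, and 24, 8, 7 and 1 under the same settings; single arrays or mice left out gave 3 to 17. Ligand probe sets called between YFP-LRC and LCC went from 0 to 1 with the replicate block and to 2 after the second quantile normalization, and ran from 0 to 2 with single arrays left out, an alternative chosen after seeing the data. Between Paneth and LCC they went from 2 to 3 with the block, to 4 after the second quantile normalization (which keeps the Wnt11 and loses the Wnt3 probe set) and to 0 without LCC of mice 2, 3, 5 and 6, and ran from 0 to 3 with single arrays left out. The block changed the call of no other ligand. Fits without those 4 LCC arrays hold fewer samples, and the LCC arrays they keep are those most like the other arrays. The cause of the other changes was not tested.

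Rescaling moved the median of all genes in Paneth minus LCC from 0.03 to -0.06 (second quantile normalization) and -0.08 (centred), and the ligand median from -0.17 to -0.31 and -0.28, so the ligand differences against LCC are read relative to that shift. With the filter on dim genes 2 ligands, Wnt5b and Wnt9a, were left, and neither was called.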
